A study of Homo sapiens with 8 samples.

Results

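The MYC and MAX network was followed through 8 gene models, MYC, MAX, MXD1, MXD4, MXI1, MNT, MGA and MLX, in libraries of nascent RNA from 2 human colorectal cancer cell lines. Members were found by an exact match of the gene symbol in the deposited count tables, and all 8 were present among 18638 gene models and passed the filter on low counts in both lines. In DLD-1 cells, auxin treatment of cells with degron-tagged RNA polymerase II went with fewer reads over 6 of the 8 members, led by MYC, while MAX and MXD1 did not pass the test. Of all genes tested in DLD-1, 67.3% were called and 35% were called lower. In HCT116 cells, all with degron-tagged TOP2A, a TOP2B-/- group whose labels conflict on auxin was set against cells without the knockout. There, 0 of the 8 members were called by edgeR, which called 3.41% of all genes. DESeq2 called 1 member, MNT, and 10.2% of the genes it tested.

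MYC is a transcription factor that binds DNA only as a heterodimer with MAX, through basic helix-loop-helix leucine zipper domains, and the pair recognises the E-box CACGTG at the promoters of growth genes. The MXD proteins (MXD1, MXD4 and the related MXI1), MNT and MGA also dimerise with MAX and occupy the same element, where most of them recruit corepressors, so that the balance between MYC and its rivals for MAX sets the output of shared targets. MLX is a parallel partner to MAX: it dimerises with MNT, with MXD1 and MXD4, and with the nutrient sensors MLXIP (MondoA) and MLXIPL (ChREBP). In colorectal cancer, MYC is a well known target of the Wnt and beta-catenin pathway, and its RNA is short-lived, so that its level follows transcription closely.

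Both lines are established lines from colorectal tumours. DLD-1 cells carried mAID and mClover on POLR2A, the gene of the RPB1 subunit of RNA polymerase II, with a doxycycline-inducible OsTIR1, and were either untreated or given auxin for 14 h (2 libraries each). HCT116 cells carried mAID on TOP2A in both groups, and 1 group was in addition TOP2B-/- (2 libraries each). Protocols in the labels describe 24 h of doxycycline and 500 µM auxin. For the TOP2B-/- group the titles read as control and the treatment field reads as 14 h of auxin, so the loss of TOP2B and auxin cannot be told apart there. The labels do not say whether replicates came from separate cultures or whether a line is 1 clone, and p-values therefore measure the spread between these libraries, which may be technical.

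Total counts lay between 10739622 and 14183633 in the auxin libraries of DLD-1 and between 32129400 and 62626875 in the other 6. Reads over gene models taken as silent gave a background density, which made up between 39.5% and 59.6% of all counted reads after auxin, between 2.24% and 9.02% in DLD-1 controls, and 0.256% to 3.03% in HCT116. Correlations of log2 CPM between replicates over genes were 0.98 in both DLD-1 groups, 0.99 in the TOP2B-/- group and 0.96 in the HCT116 controls, the lowest of the 4. A degron removes protein, so reads over POLR2A and TOP2A do not check the labels. In CPM, counts scaled by library total and by edgeR's TMM factor, TOP2B stood at 186 and 192 in the HCT116 controls and at 135 and 132 in the TOP2B-/- group, a log2 fold change of −0.50 ± 0.04 (SE). Colon epithelial markers such as EPCAM, KRT8 and KRT18 were well above background in all 8 libraries. CDX1 and LGALS4, by contrast, stood at 0.599 and 0.721 times background in DLD-1 control 2 and did not pass the filter on low counts in HCT116.

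Promoter sequences were taken from RefSeq (GRCh38.p14) to show where the network's own element lies in its own genes. Of the 8 members, 7 matched the table, with 12 promoter windows of 300 bases, from 250 bases before a transcription start to 50 after it. The hexamer CACGTG, which reads the same on both strands, was found once in a window of MXD4, MNT and MLX and in none of the windows of MXD1, MXI1, MAX and MGA. It occurs in 7.26% of all 35116 promoter windows. The 250 bases before the start of the 3 genes are given 5′ to 3′ on the strand of the gene, with the E-box in capitals. They lie at chr4:2262110-2262359 on the minus strand for MXD4, at chr17:2401061-2401310 on the minus strand for MNT and at chr17:42566850-42567099 on the plus strand for MLX.
MXD4: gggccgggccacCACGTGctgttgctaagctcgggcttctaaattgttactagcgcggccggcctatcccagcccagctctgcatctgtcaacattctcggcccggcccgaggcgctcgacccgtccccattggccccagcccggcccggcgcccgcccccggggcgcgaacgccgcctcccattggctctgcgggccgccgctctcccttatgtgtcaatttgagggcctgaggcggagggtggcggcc
MNT: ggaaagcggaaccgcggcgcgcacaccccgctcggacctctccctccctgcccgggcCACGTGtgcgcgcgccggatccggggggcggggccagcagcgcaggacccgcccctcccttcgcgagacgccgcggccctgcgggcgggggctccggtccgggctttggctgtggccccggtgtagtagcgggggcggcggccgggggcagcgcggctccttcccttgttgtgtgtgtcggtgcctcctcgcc
MLX: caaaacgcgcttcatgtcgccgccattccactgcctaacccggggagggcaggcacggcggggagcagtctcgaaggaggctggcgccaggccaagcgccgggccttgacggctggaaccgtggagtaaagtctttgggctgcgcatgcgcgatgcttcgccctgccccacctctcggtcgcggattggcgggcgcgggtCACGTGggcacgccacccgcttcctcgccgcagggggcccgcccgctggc
The E-box starts 238 bases before the transcription start in MXD4, 193 bases before it in MNT and 50 bases before it in MLX.

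The gene models differed widely in size. On GRCh38, the build named in the labels, MYC spanned 5366 bp at chr8:127736069-127741434 and MLX 6144 bp at chr17:42567060-42573203, both on the plus strand. On the minus strand lay MXD4 (14580 bp, chr4:2247433-2262012), MNT (16905 bp, chr17:2384060-2400964) and MAX (96444 bp, chr14:65006101-65102544). MXD1 (27904 bp, chr2:69915041-69942944), MXI1 (79761 bp, chr10:110207605-110287365) and MGA (109532 bp, chr15:41660412-41769943) lay on the plus strand. Reads were counted over exons and introns alike, and whether counting used strand is not stated in the labels. MAX shares 56555 bp with CHURC1-FNTB on the opposite strand and MLX shares 894 bp with PSMC3IP on the opposite strand, so reads of these pairs may not be separated.

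Levels of different genes were compared as RPKM, reads per kb of counted length scaled by the library's total count. In the DLD-1 controls MYC had the highest density of the network, at 9.57 and 9.27 RPKM, and MLX followed at 3.36 and 3.34. MXD1, at 1.19 and 1.43 RPKM, overlapped with MGA, at 1.33 and 1.25. MNT came next at 1.25 and 0.942 RPKM, just below MGA without overlap. MXI1, at 0.746 and 0.816 RPKM, overlapped with MXD4, at 0.785 and 0.725, and MAX was lowest at 0.675 and 0.707 RPKM.

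The order in the HCT116 controls also began with MYC, at 21.7 and 27.1 RPKM, and MLX, at 4.23 and 4.52. MNT (1.76 and 1.87 RPKM), MXD4 (1.59 and 1.80) and MGA (1.62 and 1.57) followed, each overlapping with its neighbour. MXD1 (0.641 and 0.631 RPKM), MXI1 (0.573 and 0.557) and MAX (0.545 and 0.542) closed the order, without overlap between neighbours. Control means of MYC, MXD4 and MNT were 2.59, 2.25 and 1.66 times as high in HCT116 as in DLD-1, and that of MXD1 was 2.06 times as high in DLD-1. The cell line and the table it was counted in cannot be told apart, and no test between the lines was made.

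**Figure D1:**
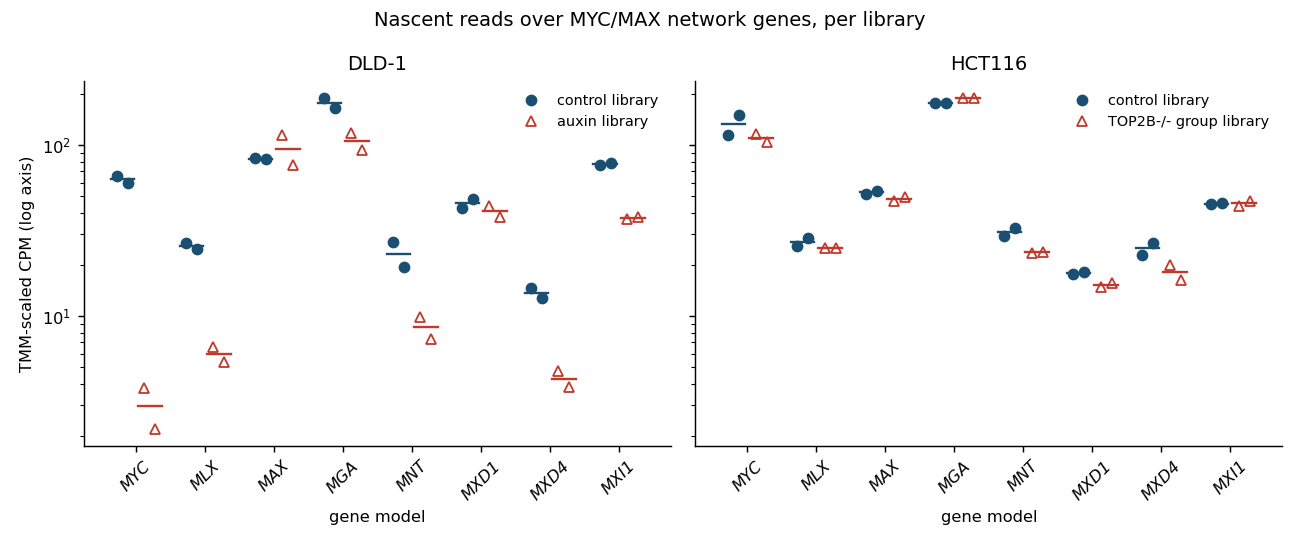
TMM-scaled CPM (log axis) of each member in each library of DLD-1 (left) and HCT116 (right); filled circles are control libraries, open triangles auxin or TOP2B-/- libraries, and bars are group means of 2. In DLD-1 the groups overlap for MAX and MXD1 and stand apart for the other 6, whereas in HCT116 all group means lie close to each other.

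The DLD-1 comparison asks how the network's nascent RNA changes once RNA polymerase II is targeted for degradation. By edgeR's quasi-likelihood test with Benjamini-Hochberg adjustment over 17625 genes, 67.3% of all genes were called, 35% lower and 32.2% higher. Of the members, 6 of 8 were called, all 6 lower, and their groups did not overlap. Groups did not overlap for 91% of all tested genes. The median log2 fold change was −1.24 over the 8 members and −0.06 over all tested genes. The tested genes include models near background in the controls. Whether the members changed more than genes of like control level was not tested. With library totals alone as scaling, which moved the median of all genes to 0.57, MYC, MLX and MXD4 were called lower and MAX higher, and MXI1, MNT and MGA were not called. The labels name no spike-in, so each value is a share of its library, and fewer cells and less RNA per cell cannot be told apart.

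MYC had 3217 and 1835 reads in the DLD-1 controls and 65 and 30 reads after auxin. As CPM these were 66.2 and 60.1 against 3.77 and 2.18, so that both auxin libraries fell far below both controls. The log2 fold change was −4.40 ± 0.34 (SE; edgeR adjusted p = 0.0042), a 21.0-fold lower level, and the 12th lowest of the 17625 tested genes. The 95% interval ran from −5.29 to −3.51.

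MLX, the partner of MNT and of the Mondo proteins, had the next lowest log2 fold change. It went from 26.6 and 24.8 CPM to 6.62 and 5.38 CPM after auxin, a log2 fold change of −2.10 ± 0.26 (SE; edgeR adjusted p = 0.0057). MYC and MLX remained lower and past the threshold under all 12 alternative settings and left-out libraries, with log2 fold changes of −4.76 to −3.77 and −2.16 to −1.42.

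The antagonists MXD4 and MNT were called lower as well. MXD4, a MAX-binding repressor, stood at 14.7 and 12.7 CPM in the controls and at 4.76 and 3.85 CPM after auxin, a log2 fold change of −1.67 ± 0.31 (SE; edgeR adjusted p = 0.014). MNT, the most widely expressed of the MAX-binding repressors, stood at 27.2 and 19.2 CPM and at 9.81 and 7.34 CPM after auxin, a log2 fold change of −1.43 ± 0.31 (SE; edgeR adjusted p = 0.020). Both calls were lost without auxin 1 (adjusted p = 0.089 for MXD4 and 0.100 for MNT) and without auxin 2 (adjusted p = 0.099 and 0.131), at log2 fold changes of −1.73 and −1.53 for MXD4 and −1.57 and −1.25 for MNT. Calls over all genes went from 11855 to 2393 and 3165 in the same fits.

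MXI1 and MGA, which have long gene models, showed the smallest of the called changes. MXI1, a repressor of the MXD family, stood at 76.7 and 78.6 CPM in the controls and at 37.1 and 37.9 CPM after auxin, with little spread within either group. Its log2 fold change was −1.05 ± 0.15 (SE; edgeR adjusted p = 0.0083), with an adjusted p of 0.055 without auxin 1. MGA, a large MAX partner of a Polycomb-type repressor complex, stood at 187 and 165 CPM and at 117 and 93.6 CPM after auxin, a log2 fold change of −0.74 ± 0.19 (SE; edgeR adjusted p = 0.028). Without control 1, auxin 1 or auxin 2 the adjusted p of MGA was 0.133, 0.081 and 0.114. In the same fits its log2 fold change was −0.65, −0.82 and −0.59.

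MAX, the obligate partner of MYC, did not pass the test. It stood at 83.9 and 82.3 CPM in the DLD-1 controls and at 114 and 76.7 CPM after auxin, so that the auxin libraries lay on either side of the controls. Its log2 fold change was 0.20 ± 0.24 (SE; edgeR adjusted p = 0.476), with a 95% interval from −0.42 to 0.82. The opposite-strand gene CHURC1-FNTB, which shares sequence span with MAX, had a log2 fold change of −1.25 in the same libraries (edgeR adjusted p = 0.0104).

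MXD1, a MAX-binding repressor known from differentiating cells, did not pass the test either. It stood at 42.9 and 48.3 CPM in the controls and at 44.3 and 37.7 CPM after auxin, with overlapping groups. The log2 fold change was −0.15 ± 0.19 (SE; edgeR adjusted p = 0.488), and its 95% interval ran from −0.64 to 0.33. Its sign turned to positive under 4 of the 12 alternatives.

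**Figure D2:**
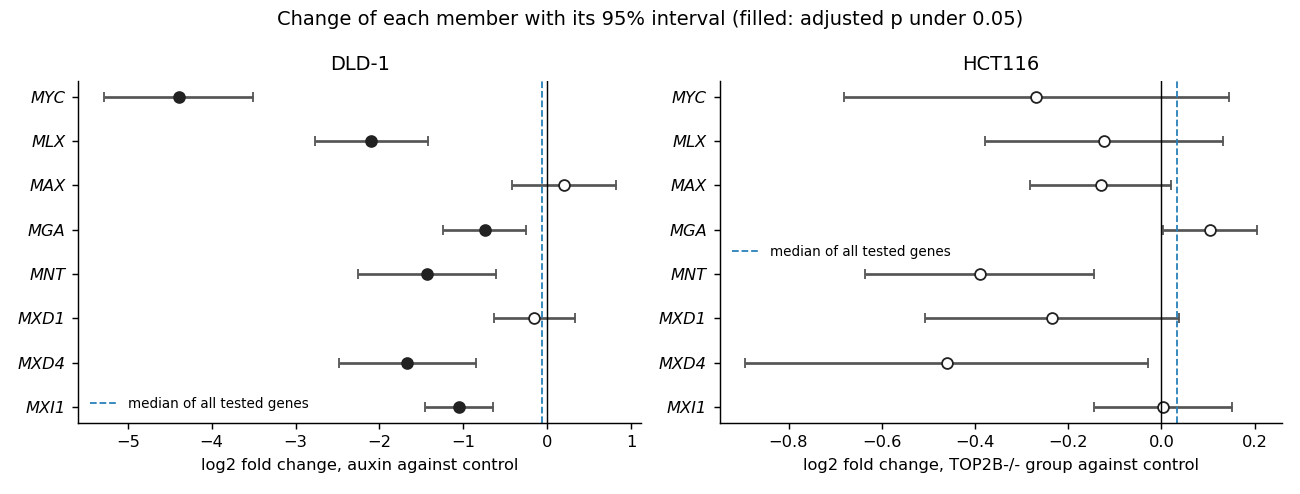
Log2 fold change of each member with its 95% interval for auxin against control in DLD-1 (left) and the TOP2B-/- group against control in HCT116 (right, on a finer scale); filled points passed an adjusted p of 0.05 and the dashed line is the median of all tested genes. MYC lies at −4.40 in DLD-1, far to the left of the other members, and no point is filled in HCT116.

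How far the reads after auxin stood above the background differed from member to member. Background density was the median reads per counted base over 3111 gene models that were nearly silent in the other cell line, and each member's reads were divided by the reads this density gives over its length. In the DLD-1 controls the members stood 8.96 to 488 times above background, and all 8 stood above the 95th percentile of the silent models. After auxin, MYC stood at 2.48 and 1.00 times background. The 65 reads of auxin 1 carried a 95% Poisson interval of 50.2 to 82.8 against 26.3 background reads, and the 30 reads of auxin 2 an interval of 20.2 to 42.8 against 30.1 background reads, so MYC was not detectable above background in auxin 2. These intervals cover counting error only.

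MXD4 (1.16 and 0.653 times background), MXI1 (1.64 and 1.17) and MNT (2.04 and 1.07) lay within the range of silent models in both auxin libraries. The 95th percentiles of these models were 2.22 and 1.71, and MYC lay within the range in auxin 2 only. MXD1 (5.59 and 3.32 times background), MAX (4.16 and 1.95), MLX (3.79 and 2.15) and MGA (3.76 and 2.10) stood above it in both. The reads over these 4 genes after auxin were thus more than those over most silent models.

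With the background subtracted from the counts, MYC had a log2 fold change of −4.60 (edgeR adjusted p = 0.040), MXI1 of −1.64 and MLX of −1.42, all 3 still called lower. MXD4 (−4.12, adjusted p = 0.054), MNT (−1.90, adjusted p = 0.160) and MGA (−0.05, adjusted p = 0.694) were no longer called. MYC and MXD4 had 0 reads left in auxin 2, so that their values depend on the prior count of the fit. On this scale MAX (0.92, adjusted p = 0.032) and MXD1 (0.82, adjusted p = 0.016) were called higher. The part of background in each fold was not tested beyond this subtraction.

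**Figure D3:**
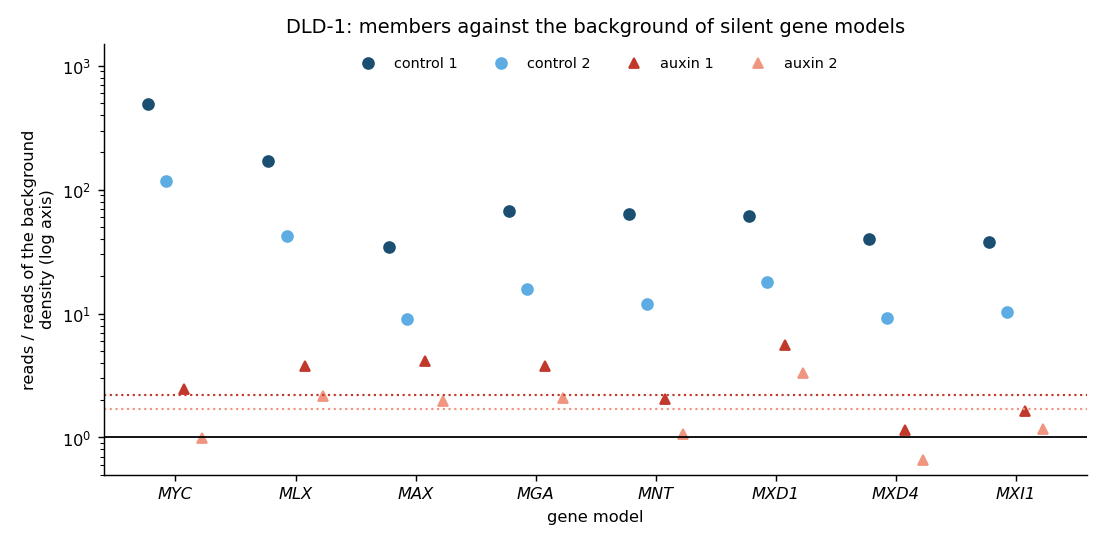
Reads over each member divided by the reads that the background density gives over its length (log axis), in the 4 DLD-1 libraries; the solid line marks background and the dotted lines the 95th percentile of silent gene models in auxin 1 (upper, 2.22) and auxin 2 (lower, 1.71). MYC drops from the highest point of the controls to 1.00 times background in auxin 2, while MXD1, MAX, MLX and MGA stay above the dotted lines.

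Ratios between members within a library do not depend on the scaling of libraries. Per kb, MYC had 14.2 and 13.1 times the reads of MAX in the DLD-1 controls and 0.595 and 0.511 times after auxin. Relative to the summed density of its rivals MXD1, MXD4, MXI1, MNT and MGA, MYC stood at 1.81 and 1.79 in the controls and at 0.174 and 0.120 after auxin. Both ratios turned from above 1 to below 1 in both auxin libraries. With background subtracted, MYC to MAX stood at 14.6 and 14.6 in the controls and at 0.467 and 0 after auxin.

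Without background subtraction, the other members also had lower densities relative to MAX after auxin, MXD1 least so. MLX went from 4.98 and 4.72 times the density of MAX to 0.912 and 1.10 times, and MGA from 1.97 and 1.77 times to 0.905 and 1.07 times. MXD1 went from 1.77 and 2.03 times to 1.34 and 1.70 times. With background subtracted, MXD1 stood at 1.79 and 2.16 times in the controls and at 1.45 and 2.43 times after auxin, with overlapping groups. On that scale MXD4 went from 1.17 and 1.03 times to 0.0492 and 0 times. After auxin, MXD1 had the highest density of the network at 1.93 and 1.73 RPKM, ahead of MAX at 1.44 and 1.02 RPKM, which overlapped with MLX. MYC, at 0.854 and 0.521 RPKM, came 5th and overlapped with MNT.

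**Figure D4:**
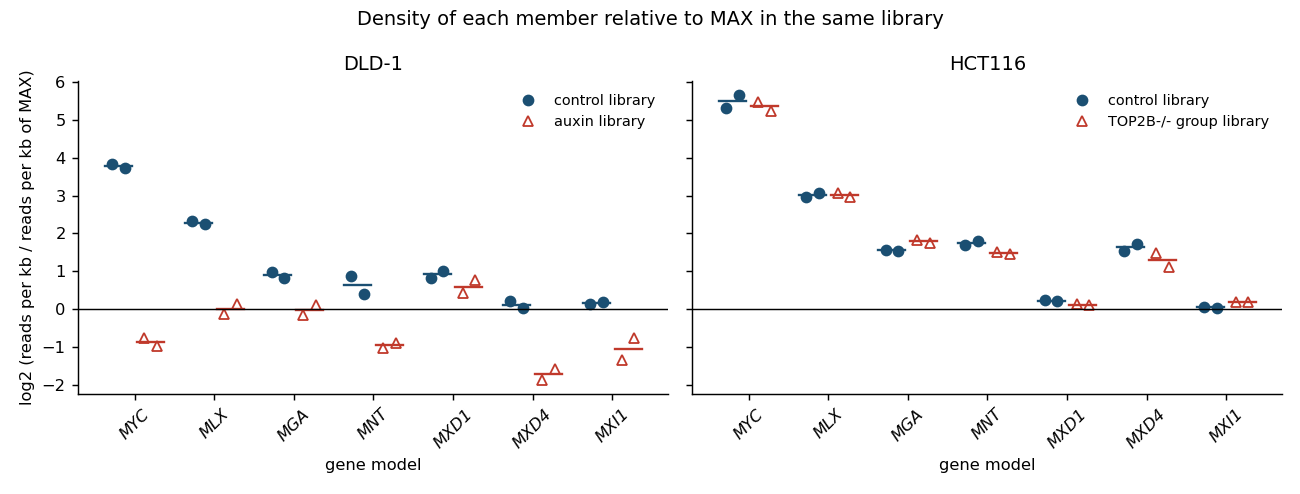
Log2 ratio of each member's reads per kb to those of MAX in the same library, for DLD-1 (left) and HCT116 (right); circles are control libraries, triangles auxin or TOP2B-/- libraries, and bars are group means. In DLD-1 MYC moves from 3.83 and 3.71 to −0.75 and −0.97, while in HCT116 its libraries lie between 5.23 and 5.64 in both groups.

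Other properties that did not enter the choice of members were set beside these changes as descriptions. MYC and MLX, the shortest members, had the lowest log2 fold changes, although after background subtraction MXD4 (−4.12), MNT (−1.90) and MXI1 (−1.64) lay below MLX (−1.42). The Spearman correlation between span and log2 fold change over the 8 members was 0.88 in DLD-1, and 0.71 after background subtraction, while it was −0.14 over all 17625 genes. In HCT116 it was 0.60 over the 8 members, 0.50 after background subtraction, and 0.41 over all 15273 genes. These points share libraries, and longer models hold more background reads. The 3 members with an E-box in the printed promoters (MLX, MXD4 and MNT) had the 3 lowest log2 fold changes of the 7 members matched to a promoter, an order that did not hold after background subtraction, where MXI1, without an E-box, lay below MLX. Over all tested genes matched by symbol, 43.6% of the 1479 genes with the hexamer and 35.6% of the 11789 without it were called lower in DLD-1, and 22.7% and 32.0% were called higher, with median log2 fold changes of −0.54 and −0.10. Median control levels of these 2 gene groups also differed, at 28.9 and 18.7 CPM. In HCT116 the shares called lower were 2.05% and 1.63% and those called higher 2.05% and 1.89%.

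Genes whose pattern was most like that of MYC were sought by the Pearson correlation of log2 CPM, centred within each line, over all 8 libraries and 15205 genes tested in both lines. The closest 5 were DNAJA2, a co-chaperone of HSP70, WDR11, TACC3, a protein of the mitotic spindle, NOL7, a nucleolar protein, and HNRNPF, a splicing regulator, with r between 0.9992 and 0.9996. Their DLD-1 log2 fold changes ran from −2.62 for DNAJA2 to −1.38 for WDR11, all smaller than that of MYC. Of the members, MLX was most like MYC, with r = 0.999. MXI1 (0.983), MXD4 (0.971), MGA (0.957) and MNT (0.955) followed, and MXD1 (0.525) and MAX (−0.240) stood apart. The points share libraries, and the DLD-1 groups among them differed far more than the HCT116 groups.

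In HCT116, the comparison sets cells with TOP2A-mAID and TOP2B-/-, whose labels conflict on auxin, against cells with TOP2A-mAID alone. There, edgeR called 3.41% of 15273 tested genes, 1.75% higher and 1.66% lower, and 0 of the 8 members passed the test. An unadjusted p under 0.05 was reached by 3 members (MXD4, MNT and MGA) and by 3492 of the 15273 tested genes. DESeq2 called 1 member, MNT, and 10.2% of the genes it tested. The groups of 6 members did not overlap, against 55.3% of all tested genes. All 8 members stood at least 19.8 times above background in every HCT116 library.

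MYC stood at 115 and 149 CPM in the HCT116 controls and at 116 and 104 CPM in the TOP2B-/- group. Control 1 and both TOP2B-/- libraries thus lay close together and control 2 lay above them. The log2 fold change was −0.27 ± 0.15 (SE; edgeR adjusted p = 0.374), with a 95% interval from −0.68 to 0.14. Without control 1, MYC was called lower, at −0.45 (adjusted p = 0.038), and without control 2 it stood at −0.14 (adjusted p = 0.497).

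MNT stood at 29.4 and 32.6 CPM in the controls and at 23.5 and 23.8 CPM in the TOP2B-/- group, with no overlap. Its log2 fold change was −0.39 ± 0.09 (SE; edgeR adjusted p = 0.110), and 4 of 13 alternatives called it lower, among them the fit without control 1 (adjusted p = 0.037). MXD4 went from 22.8 and 26.8 CPM to 19.9 and 16.2 CPM, a log2 fold change of −0.46 ± 0.16 (SE; edgeR adjusted p = 0.201). MGA stood at 175 and 177 CPM in the controls and at 189 CPM in both TOP2B-/- libraries, a log2 fold change of 0.10 ± 0.04 (SE; edgeR adjusted p = 0.207).

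The remaining 4 members did not pass the test either. MXD1 stood at 17.7 and 18.1 CPM in the controls and at 14.9 and 15.6 CPM in the TOP2B-/- group, and MAX at 51.9 and 53.8 CPM against 46.9 and 49.6 CPM. MLX stood at 25.7 and 28.6 CPM against 24.9 and 24.8 CPM. Their log2 fold changes were −0.23, −0.13 and −0.12, with edgeR adjusted p of 0.269, 0.267 and 0.496. MXI1 was nearly the same in both groups, at 45.2 and 45.7 CPM against 44.2 and 46.8 CPM, and its 95% interval of the log2 fold change ran from −0.15 to 0.15. Per kb, MYC had 39.9 and 49.9 times the reads of MAX in the controls, against 44.4 and 37.6 times in the TOP2B-/- group, with overlapping groups.

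Gene lists around the network were read from the same fits. Among the partners of the network, which hold further family members, coactivators and corepressors, 17 of 23 tested genes were called lower in DLD-1 and 1 higher, with a median log2 fold change of −1.10. The largest decreases were those of KAT5 (−3.17), the acetyltransferase of the TIP60 coactivator complex, BPTF (−2.24), a chromatin remodeller bound by MYC, and E2F6 (−2.02), which sits with MGA in a repressor complex. After auxin, KAT5 stood at 1.13 and 1.08 times background and E2F6 at 1.42 and 0.966, within the range of silent models in both libraries, and BPTF at 2.64 and 1.66, within it in auxin 2. The single gene called higher, MYCN (1.89), stood at 1.06 and 0.842 times background after auxin. MYCL and MXD3, close relatives of MYC and of the MXD repressors that were picked out after their values were seen, had log2 fold changes of −1.41 and −1.10. MYCL stood at 0.837 and 0.704 times background after auxin, under background density in both libraries, and MXD3 at 2.89 and 2.02. After auxin, 10 of the 23 genes stood above the 95th percentile of silent models in both libraries, and 7 of these 10 were called lower. The count of partners called fell from 18 to 6 without auxin 1 and to 8 without auxin 2, and was 10 with library totals alone as scaling.

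Genes that set the stability or activity of MYC protein were called lower in 12 of 15 cases, with a median log2 fold change of −1.22. PIM1 (−2.13), a kinase, AURKA (−2.07), a kinase known to stabilise MYC family proteins, and TRIP12 (−1.93), a ubiquitin ligase, had the largest decreases. AURKA stood at 2.03 and 1.707 times background after auxin, within the range of silent models in both libraries, while PIM1 and TRIP12 stood above it. Of the 15 genes, 11 stood above that range in both auxin libraries, and 9 of these 11 were called lower. The other 3 genes called lower did not stand above it in both. SETBP1 (2.73) was the 1 gene called higher, and stood at 1.24 and 1.23 times background after auxin. Of this list, 9 genes were called without auxin 1, and 9 without auxin 2.

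Of 34 tested textbook genes raised by MYC, 17 were called lower in DLD-1, 2 higher and 15 did not pass the test, with a median log2 fold change of −0.82. The count of calls was 8 without auxin 1 and 9 without auxin 2. NOP56 (−2.47), of box C/D ribonucleoproteins, UBTF (−2.41), a factor of ribosomal RNA transcription, and SLC7A5 (−2.19), an amino acid transporter, had the largest decreases. The 2 genes called higher were CCND2 (2.36) and TERT (1.35), which lay under background density in both auxin libraries, at 0.633 to 0.766 times. Of the 22 genes that stood above the 95th percentile of silent models in both auxin libraries, 9 were called lower, 0 higher and 13 did not pass the test. Members of this list without a call included abundantly read genes picked out after their values were seen, such as NPM1 (−0.09), HSPD1 (0.21), SHMT2 (0.11) and ENO1 (0.41).

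Of 7 textbook genes lowered by MYC, 3 were called lower and 2 higher in DLD-1. Without auxin 1 or without auxin 2, 1 of the 7 was called. The lower ones were GADD45A (−1.67), CDKN1B (−1.55) and NDRG1 (−1.17). The higher ones were NDRG2 (2.57), at 2.31 and 1.47 times background after auxin, and CDKN1A (1.26), which encodes the cell cycle inhibitor p21. CDKN1A rose from 8.19 and 8.35 CPM to 24.95 and 14.6 CPM and stood at 8.08 and 3.30 times background after auxin. Among 3 tested genes driven by MLX with MondoA, ARRDC3 was called higher (0.66). Of 3 tested models in the neighbourhood of MYC, FAM84B was called lower (−2.50), and GSDMC was called higher (3.92) while at 0.306 and 0.166 times background. Without auxin 1 or without auxin 2, 0 of the MondoA targets and 1 of the neighbours of MYC were called.

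**Figure D5:**
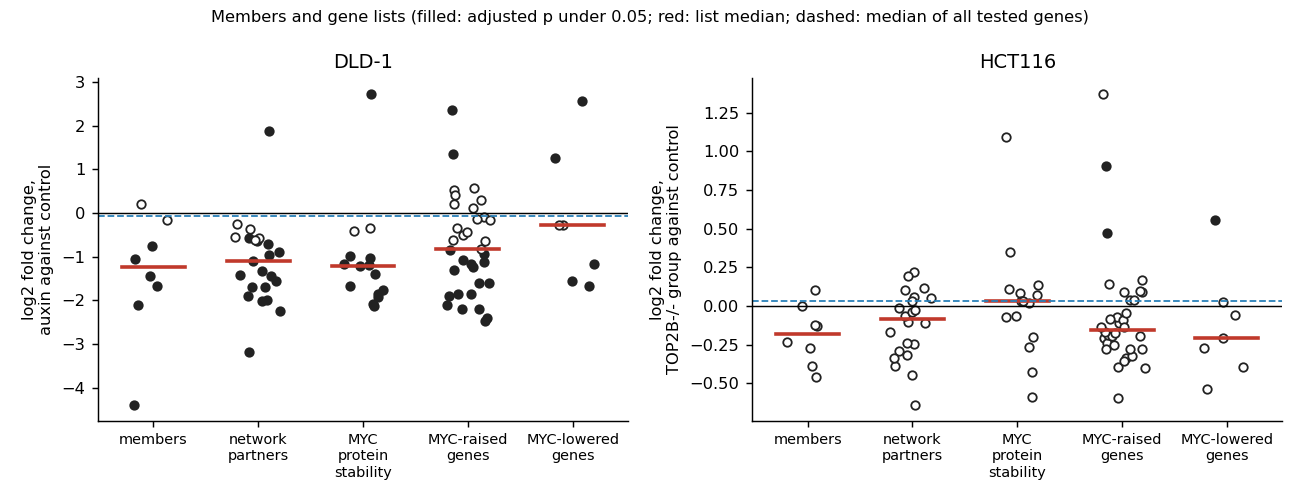
Log2 fold changes of the members and of 4 gene lists in DLD-1 (left, auxin against control) and HCT116 (right, TOP2B-/- group against control); filled points passed an adjusted p of 0.05, red bars are medians and the dashed line is the median of all tested genes. In DLD-1 the medians of members, partners, stability genes and MYC-raised genes lie at −1.24, −1.10, −1.22 and −0.82, and in HCT116 the 3 filled points are TERT, HK2 and NDRG1.

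In HCT116, 0 of 22 partners and 0 of 15 stability genes passed the edgeR test. Of these lists, 10 and 4 genes had an unadjusted p under 0.05, and DESeq2 called 2 and 3. Of all 15273 tested genes, 3492 had an unadjusted p under 0.05, and DESeq2 called 10.2% of the genes it tested. Of 34 genes raised by MYC, 2 were called higher by edgeR, TERT and HK2, and 0 lower, with 11 at an unadjusted p under 0.05 and 8 called by DESeq2. TERT, the catalytic subunit of telomerase, rose from 10.3 and 10.6 CPM to 19.5 and 19.7 CPM, and HK2, a hexokinase of glycolysis, from 49.4 and 52.0 CPM to 70.6 and 70.3 CPM. Of 7 genes lowered by MYC, NDRG1 was called higher, with a log2 fold change of 0.56, and 0 were called lower. Of the tested MondoA targets (0 of 2) and neighbours of MYC (0 of 1) edgeR called none, with 1 at an unadjusted p under 0.05 in each list and 0 and 1 called by DESeq2. Without TOP2B-/- 1 or without TOP2B-/- 2, 0 genes of these lists were called.

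Markers of cell identity were read beside these lists. Of 9 colon epithelial markers tested in DLD-1, 3 were called lower, CDX2 (−3.51), KRT18 (−1.72) and KRT19 (−1.62), and 1 higher, CDX1. Of all genes, 35% were called lower and 32.2% higher. CDX1 did not stand above the 95th percentile of silent models in both auxin libraries. The 4 calls became 2 without auxin 1 and 2 without auxin 2. Of 10 markers of fibroblasts, leukocytes, endothelium and liver, 8 were called higher, and their summed level went from 12.6 and 29.6 CPM to 162 and 162 CPM. PECAM1 (4.81 and 2.49 times background after auxin) and ALB (2.51 and 1.77) stood above the 95th percentile of silent models in both auxin libraries, and the other 8 markers did not. Without auxin 1 or without auxin 2, 0 of the 10 were called. In HCT116, 1 of 7 epithelial markers was called lower (CDH1, −0.69) and 0 of 8 markers of other cell types were called by edgeR, with 1 at an unadjusted p under 0.05 and 1 called by DESeq2. Their part in the members' changes was not tested.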

How the data were processed

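The authors deposited raw read counts per RefSeq gene model, 1 table per cell line with 18638 models, counted over the span of each model. The submitters' processing notes name STAR, DESeq2 and hg38; the sources used here give no versions, counter settings or strand. Deposited tables of the authors' own changed genes hold fold changes and p-values and were not used. Counts were fitted per cell line (4 libraries, 2 residual degrees of freedom) with edgeR 4.0.16 in R 4.3.3: filterByExpr, TMM, quasi-likelihood test, two-sided, Benjamini-Hochberg threshold 0.05. Standard errors came from the F statistic. Scripts were tested on simulated data. Silent models were the lowest 20% per chromosome, of at least 5000 bp, by control density in the other line. Alternatives were DESeq2 1.42.0, other scalings and filters, background subtraction, left-out libraries, a replicate block and all 8 libraries in 1 fit. The members, lists and tests were chosen with earlier results of these data known. Of each list, up to 3 genes called higher and 3 called lower with the largest change were named, and the 5 genes most like MYC. Total counts per library ranged from 10739622 to 62626875. The supplied paper describes another experiment.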

Additional observations from a re-analysis of the deposited data

How the results depend on the processing

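Over the DLD-1 alternatives the counts of genes and members called stayed within 1.5 times of the reported ones, apart from left-out libraries, where 2393 to 12732 genes and 2 to 6 members were called. With library totals alone as scaling, the share of higher calls in DLD-1 was 69.1% (47.9% with TMM) and the median of all genes lay at 0.57. With it the adjusted p of MXI1, MNT and MGA rose past the threshold, while MAX was called higher at 0.83. After background subtraction MXD4, MNT and MGA were no longer called, and MAX (0.92) and MXD1 (0.82) were called higher. Of 6316 gene calls shared with the reported fit, 214 then had the opposite sign. Similar counts of calls thus held different members. The log2 fold change of MXD1 turned positive with library totals alone (0.48), a minimum mean of 5 CPM (0.24), a fit over all 8 libraries (0.063) and background subtraction (0.82), and that of MAX ran from −0.017 without auxin 1 to 0.45 without auxin 2. With the minimum of 5 CPM, MGA was no longer called (adjusted p = 0.092). In HCT116, 521 genes were called, against 1849 with DESeq2, 1221 with a minimum mean of 5 CPM, 5 over all 8 libraries, 2307 after background subtraction and 0 to 2519 with a library left out. The count of members called was 1 with DESeq2, 1 with the 5 CPM minimum and 1 after background subtraction. The shares of all tested genes called in these fits were 10.2%, 10.9% and 17%. MXI1 in HCT116 turned to −0.011 with DESeq2, −0.0053 with RLE scaling and −0.011 over all 8 libraries, and ran from −0.057 (without control 2) to 0.0013 with a library left out. The cause of these shifts was not tested.

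With 2 pairs a line, shared replicate numbers do not establish a pairing: deviations of same-numbered libraries correlated at 0.56 in DLD-1 and −0.82 in HCT116. The replicate block gave 12963 genes and 6 members in DLD-1. In HCT116 the block gave 0 genes by edgeR, with 2177 at an unadjusted p under 0.05, and the crossed pairing, chosen after seeing the data, gave 1808 genes and 0 members. Where 1 library was left alone in a group, the fit gave it the spread of the opposite group. In the DLD-1 auxin libraries MYC had 65 and 30 reads, where background density gives 26.3 and 30.1.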
